A study of Rattus norvegicus with 2 samples.

Results

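The 9 genes described here encode complement components of the classical and alternative routes, together with 1 regulator of the classical route. They are C1qa, C1qb, C1qc, C1r, C1s, C2, C3, Cfd and Serping1, taken by their symbols from the protein-coding tables of the series. All 9 were listed in both libraries, among 13706 protein-coding genes listed in either library. The animals were spontaneously hypertensive rats, an inbred hypertensive strain whose hearts enlarge, and the myocardium was taken after 12 weeks. The treated group received KXH, the high dose of KXF at 9.6 g/kg, into the stomach. The series title names the preparation as Jiangya Kangxian Formula. The other group received distilled water. Both groups are of the hypertensive strain, so the comparison is of KXH with water within that strain, and it asks which transcripts differ with the treatment. Each group is 1 library of total RNA, and the labels do not say whether it came from 1 animal or from a pool.

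Complement is a cascade of plasma proteins that marks microbes, dying cells and immune complexes for removal. In the classical route C1q, a molecule built from the products of C1qa, C1qb and C1qc, binds its target and activates the serine proteases C1r and C1s, which cleave C4 and C2 to form an enzyme that splits C3. In the alternative route factor D, encoded by Cfd, cleaves factor B bound to C3 and so forms a further C3-splitting enzyme. Serping1 encodes C1 inhibitor, which blocks C1r and C1s. The liver makes most plasma complement, whereas tissue macrophages are a main source of C1q and fibroblasts and other stromal cells make C1r, C1s and C1 inhibitor.

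Promoter sequence is shown for both C1q chains that have an entry in the RefSeq table, because their ratios lay on opposite sides of 1, and for C3 and Cfd, because their ratios lay farthest from 1 in opposite directions. Each run is 300 bases, 250 before and 50 after the gene's start, read 5′ to 3′ on the gene's strand in the GRCr8 assembly. Capitals mark every match, on either strand, to 4 short forms. The box that positions transcription starts was searched as TATAAA, and a common variant of it as CATAAA. The form read by C/EBP factors was searched as TTNNGNAA, and the form read by STAT factors as TTCNNNGAA. C1qa lies at chr5:154419884-154420183, C1qb at chr5:154407778-154408077, C3 at chr9:2201290-2201589 and Cfd at chr7:10465447-10465746, all on the minus strand.
C1qa: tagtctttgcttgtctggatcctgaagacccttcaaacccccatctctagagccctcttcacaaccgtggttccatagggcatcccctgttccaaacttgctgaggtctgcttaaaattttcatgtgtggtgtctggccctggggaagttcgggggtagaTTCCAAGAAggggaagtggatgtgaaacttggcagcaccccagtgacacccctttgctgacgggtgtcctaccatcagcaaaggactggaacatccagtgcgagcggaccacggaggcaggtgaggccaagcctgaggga
C1qb: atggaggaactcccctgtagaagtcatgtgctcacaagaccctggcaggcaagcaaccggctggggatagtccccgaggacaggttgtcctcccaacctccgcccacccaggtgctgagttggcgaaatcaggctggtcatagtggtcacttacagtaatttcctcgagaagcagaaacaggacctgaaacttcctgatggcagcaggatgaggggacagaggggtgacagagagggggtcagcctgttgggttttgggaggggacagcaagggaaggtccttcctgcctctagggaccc
C3: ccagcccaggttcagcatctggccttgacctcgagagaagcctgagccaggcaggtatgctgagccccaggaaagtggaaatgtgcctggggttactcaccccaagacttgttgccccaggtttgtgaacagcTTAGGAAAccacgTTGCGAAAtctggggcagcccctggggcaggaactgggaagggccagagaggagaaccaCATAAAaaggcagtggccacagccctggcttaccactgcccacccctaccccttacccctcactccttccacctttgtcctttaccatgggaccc
Cfd: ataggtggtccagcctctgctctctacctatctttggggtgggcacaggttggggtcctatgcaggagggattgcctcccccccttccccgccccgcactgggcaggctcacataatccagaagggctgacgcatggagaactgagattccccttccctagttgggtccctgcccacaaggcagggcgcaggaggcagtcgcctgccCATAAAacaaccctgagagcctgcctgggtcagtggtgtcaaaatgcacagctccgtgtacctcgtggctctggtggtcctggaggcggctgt
C3 and Cfd each held CATAAA, starting 45 and 43 bases before the start, and 12.5% of 27457 RefSeq promoters of this length hold that form. C3 also held TTNNGNAA at 2 places, starting 117 and 104 bases before the start, a form found in 40.8% of promoters. C1qa held TTCNNNGAA, starting 90 bases before the start, found in 8.68% of promoters. C1qb matched none of the 4 forms in this window. TATAAA is in 14.3% of promoters and was in none of these 4 windows. A match describes letters only, and the libraries give no measure of what binds there. C1r, whose window is not shown, held CATAAA on the other strand, starting 84 bases before the start, and TTNNGNAA at 2 places, starting 128 and 83 bases before it. In the same assembly the C1q genes are neighbours on chromosome 5 in the order C1qa, C1qc, C1qb, and C1r and C1s are neighbours on chromosome 4, with 0 protein-coding genes starting between neighbours. C2 and the factor B gene Cfb are neighbours on chromosome 20.

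The protein-coding tables held 14.1 M reads with KXH and 15.1 M with water (M, 1000000). The 9 complement genes took 10347 reads with KXH and 10558 with water, which is 0.0736% and 0.0699% of the reads. Levels are in RPKM, reads per kilobase of gene length per 1000000 reads, so that genes of different length can be set side by side. Each group being 1 library, differences have no replicate check, and none was tested. Ratios of KXH over water carry an exact 95% interval that covers counting error only, and animal-to-animal variation is in none of them. "Higher" and "lower" describe these 2 libraries. Myh6, a defining gene of heart muscle cells, was at 4794 RPKM with KXH and 4824 with water. It was the 1 of 7 heart muscle markers that was not higher with KXH, and the other ratios ran from 1.03 for Tnni3 to 1.56 for Nppa.

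The complement genes were close to the water level with KXH. Of the 9 genes, 6 were higher and 3 lower, beside 3971 higher and 4790 lower of the 8761 genes with at least 200 reads in both libraries together. Cfd was the 1 gene at least 25% higher with KXH, and C3 the 1 gene at least 20% lower, which are the same distance on a log scale. Over the 8761 genes, 3.22% reached the first mark and 5.31% the second. None of the 9 was 1.5-fold apart, against 0.434% of genes higher and 0.788% lower by that much. The median log2 ratio of the 9 genes was 0.05, and that of all 8761 genes was -0.02. Their summed level was 380 RPKM with KXH and 358 RPKM with water, a ratio of 1.06, and the summed reads gave 1.05 (interval 1.02 to 1.08). The counting interval lay above 1 for C1qa, C1s, Cfd and Serping1, which is 4 of 9 against 12.3% of all genes. It lay below 1 for 0 of 9, against 17.4% of all genes. Counting intervals narrow as reads rise, and these shares of all genes are not matched for reads. Among genes with reads within a factor of 2, 21.1% were at least as far from 1 as C1qa and 42.9% as C1s. All 9 had at least 200 reads, and the deposited coverage score ran from 93.4 to 99.6 over these genes and both libraries, on a scale that reaches 131.56 for some genes.

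**Figure D1:**
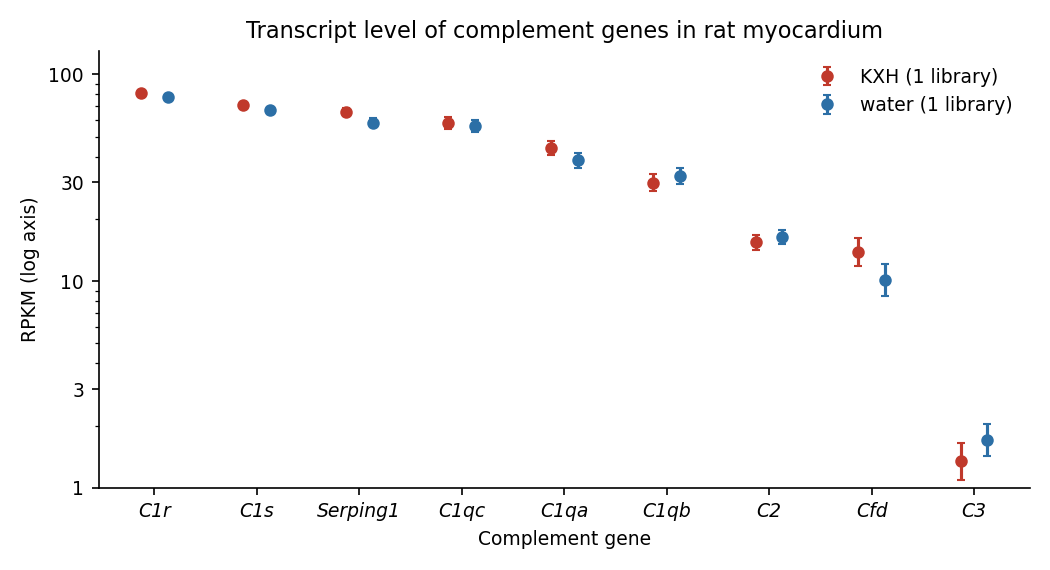
Level of the 9 complement genes in the libraries of KXH (red, left of each pair) and water (blue, right), in RPKM on a log axis, with exact 95% Poisson intervals for counting error; each point is 1 library. C1r is highest at 80.8 RPKM with KXH and 77.8 with water, and C3 is lowest at 1.35 and 1.71 RPKM.

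The proteases of C1 were the most abundant of the 9. C1r, which activates C1s, was at 80.8 RPKM with KXH (3062 reads) and 77.8 RPKM with water (3168 reads). Its ratio was 1.04 (counting interval 0.987 to 1.09), which holds 1. With median-of-ratios scaling, trimmed-mean scaling or the length trend removed, the interval lay above 1, so this depends on the scaling. C1s, which cleaves C4 and C2, was at 70.9 RPKM with KXH (2888 reads) and 66.9 RPKM with water (2927 reads). Its ratio was 1.06 (interval 1.01 to 1.12), and the lower end is near 1. By level C1r ranked 865 of 13241 listed genes with KXH and 880 of 13327 with water. The level of C1s relative to C1r, a quantity that does not depend on how the libraries are scaled, was 0.877 with KXH and 0.859 with water. The quotient of these was 1.02 (interval 0.95 to 1.10).

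Serping1, the inhibitor of both proteases, was at 65.8 RPKM with KXH (1657 reads) and 58.5 RPKM with water (1581 reads). It was 1.13-fold higher with KXH (interval 1.05 to 1.21), and 12.2% of the 8761 genes had a higher ratio. Among 2551 genes whose reads were within a factor of 2 of its own, 15.3% had a ratio at least as far from 1. Inhibitor relative to protease was 0.434 with KXH and 0.404 with water, as the level of Serping1 over the sum of C1r and C1s. The quotient of these was 1.07 (interval 0.994 to 1.16), which holds 1.

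The chains of C1q were next in abundance, and the A and B chain genes C1qa and C1qb had ratios on opposite sides of 1. C1qa was at 43.9 RPKM with KXH (619 reads) and 38.5 RPKM with water (582 reads), a ratio of 1.14 (interval 1.02 to 1.28). With the length trend removed it was 1.12 and its interval held 1. C1qb was at 29.9 RPKM with KXH (453 reads) and 32.2 RPKM with water (523 reads), a ratio of 0.930 (interval 0.819 to 1.06). C1qc was at 58.3 RPKM with KXH (844 reads) and 56.4 RPKM with water (876 reads), a ratio of 1.03 (interval 0.940 to 1.14). In both libraries the order by level was C1qc, then C1qa, then C1qb, and no 2 of these levels had overlapping counting intervals among the KXH values. Under water C1qa spanned 35.4 to 41.7 RPKM and C1qb 29.5 to 35.1 RPKM by counting error, which also did not overlap. The 3 chains summed to 132 RPKM with KXH and 127 RPKM with water, a ratio of 1.04. Their summed reads gave the same ratio to 2 decimals (interval 0.975 to 1.11).

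The C1q protein holds its A, B and C chains in equal number, and the transcripts were not in equal amount. Of all C1q reads, C1qa took 32.3% with KXH (exact Clopper-Pearson interval 30.2 to 34.5%) and 29.4% with water (27.4 to 31.4%). C1qb took 23.6% with KXH (21.8 to 25.6%) and 26.4% with water (24.5 to 28.4%). C1qc took 44.1% with KXH (41.8 to 46.3%) and 44.2% with water (42.0 to 46.4%). For each chain the intervals of the 2 libraries overlapped. Per length, C1qb over C1qa was 0.681 with KXH and 0.837 with water, and the quotient of 0.814 had a counting interval of 0.688 to 0.965. The other pairs gave quotients of 0.906 for C1qc over C1qa (0.782 to 1.05) and 0.899 for C1qb over C1qc (0.768 to 1.05). These 3 quotients share chains and are not independent.

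**Figure D2:**
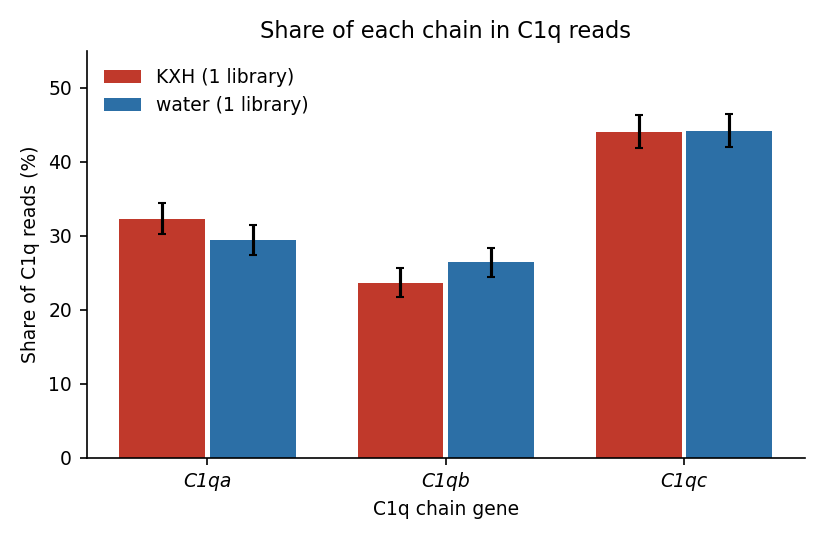
Share of C1q reads (%) from each chain gene in the libraries of KXH (red, left bar) and water (blue, right bar), with exact 95% binomial intervals for counting error. C1qc holds 44.1% and 44.2% of the reads, and the intervals of the 2 libraries overlap for each of the 3 chains.

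C2, the substrate of C1s that becomes part of the C3-splitting enzyme, was at 15.4 RPKM with KXH (565 reads) and 16.3 RPKM with water (642 reads). Its ratio was 0.945 (interval 0.843 to 1.06). C3, on which all routes converge, was at 1.35 RPKM with KXH (96 reads) and 1.71 RPKM with water (131 reads). It was 1.27-fold lower with KXH with an interval from 0.969 to 1.67-fold lower, which holds no difference. With the trend of ratio on gene length removed, its ratio of 0.821 was no longer 20% lower. Among 1819 genes with reads within a factor of 2 of those of C3, 18.0% had a ratio at least as far from 1. C3 was the least abundant of the 9. C1r was 60.02 times the level of C3 with KXH and 45.5 times with water, and the quotient of these was 1.32 (interval 1.01 to 1.72). The lower end is near 1, and no length trend was removed from this quotient. The pair was not planned, and C3 had the lowest ratio of the 9. C3 ranked 10057 of 13241 listed genes with KXH and 9862 of 13327 with water.

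Cfd, whose product factor D is also known as adipsin for its abundance in fat cells, had the highest ratio of the 9. It was at 13.9 RPKM with KXH (163 reads) and 10.1 RPKM with water (128 reads), 1.37-fold higher (interval 1.08 to 1.74). Of the 8761 genes, 1.06% had a higher ratio. Among 2514 genes with reads within a factor of 2 of its own, where counting error is of like size, 7.24% were at least as far from 1. The level of Cfd relative to C3 was 10.3 with KXH and 5.93 with water, a quotient of 1.74 (interval 1.22 to 2.47). This pair was set side by side after the values were seen, as the highest and the lowest of the 9.

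**Figure D3:**
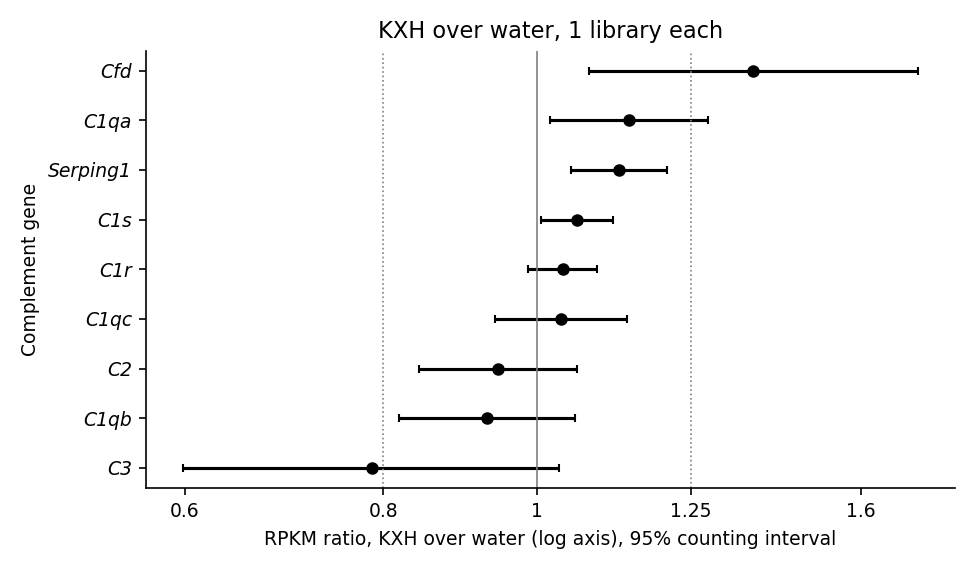
RPKM ratio of KXH over water for each of the 9 genes on a log axis, with 95% counting intervals; the solid line is a ratio of 1 and the dotted lines 25% higher and 20% lower. The intervals of Cfd, C1qa, Serping1 and C1s lie above 1, and that of C3, the lowest at 0.787, holds 1.

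The rest of the pathway was taken from a list of 51 genes in 6 classes by role. Of these, 38 were listed in at least 1 library, 13 had no row under their symbol, and 18 had at least 200 reads. Among the 18, 8 were higher and 10 lower with KXH (3971 and 4790 of all genes), with a median log2 ratio of -0.06. Of the 18, 1 was at least 25% higher (background 3.22%) and 2 at least 20% lower (background 5.31%). The counting interval lay above 1 for 4 and below 1 for 6 of the 18, against 12.3% and 17.4% of all genes. These shares are not matched for reads.

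Partners of the classical and lectin routes were led by C4a, which with C4b is listed for C4, the substrate of C1s. C4a was at 35.8 RPKM with KXH (2697 reads) and 27.1 RPKM with water (2194 reads), 1.32-fold higher (1.247 to 1.40). Its near-identical copy C4b was at 5.51 RPKM with KXH and 6.43 with water, a ratio of 0.857 (0.752 to 0.977), and is named after its values were seen. Unique reads can be split between such copies or lost. The reads of both C4 genes together, a sum added after the data were seen, were 1.23-fold higher (1.17 to 1.30), which is short of 25%. Masp1, a protease of the lectin route, was at 16.0 RPKM with KXH and 14.5 with water (ratio 1.10, 1.01 to 1.20). Its deposited coverage score was low, at 25.6 with KXH and 37.8 with water, beside 93.1 and 92.7 for C4a. The Masp1 reads may therefore come from a limited part of the gene, which was not tested, and its level is to be read with that limit.

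In the alternative route Cfb, which encodes factor B, was at 21.4 RPKM with KXH and 19.1 with water (ratio 1.12, 1.01 to 1.24). Cfp, which encodes the stabiliser properdin, was at 6.20 RPKM with KXH and 6.90 with water (0.900, 0.706 to 1.14). Of the fluid-phase regulators, 2 had at least 200 reads, and both were lower. Clu, which encodes clusterin, an inhibitor of the terminal complex, was the most abundant at 971 RPKM with KXH and 1012 with water (0.959, 0.943 to 0.975). Vtn, which encodes vitronectin, another inhibitor of that complex, was at 23.7 RPKM with KXH and 28.7 with water (0.825, 0.735 to 0.924).

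The terminal components that were listed had few reads. Of 7 such genes, 4 were listed and 0 had 200 reads, while C5, C7 and C8b had no row. The most abundant by mean level were C8g, at 2.59 RPKM with KXH (30 reads) and 2.66 with water (33 reads), and C6, at 1.12 RPKM with KXH (47 reads) and 1.24 with water (56 reads). Both ratios had intervals that hold 1.

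Among the membrane regulators and receptors with at least 200 reads, Csmd1 and Itgb2 were at least 20% lower and 0 were at least 25% higher. Cd59, which blocks the terminal complex on host cells, was at 107.9 RPKM with KXH and 107.7 with water (ratio 1.00, 0.946 to 1.06). Cr1l, a rodent regulator of the C3-splitting enzymes, was at 38.2 RPKM with KXH and 42.5 with water (0.898, 0.828 to 0.972). Csmd1, a large membrane protein with complement-control domains, was at 0.668 RPKM with KXH (122 reads) and 1.20 RPKM with water (235 reads), 1.79-fold lower (1.44 to 2.25). Itgb2, the beta chain of the leukocyte integrins that include complement receptors, was at 4.46 RPKM with KXH (198 reads) and 6.17 RPKM with water (294 reads), 1.38-fold lower (1.15 to 1.66). Calr, a chaperone that binds C1q, was at 207 RPKM with KXH and 196 with water (1.05, 1.01 to 1.09). C1qbp, a mitochondrial protein that also binds C1q, was at 81.9 RPKM with KXH and 76.3 with water (1.07, 0.992 to 1.16).

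**Figure D4:**
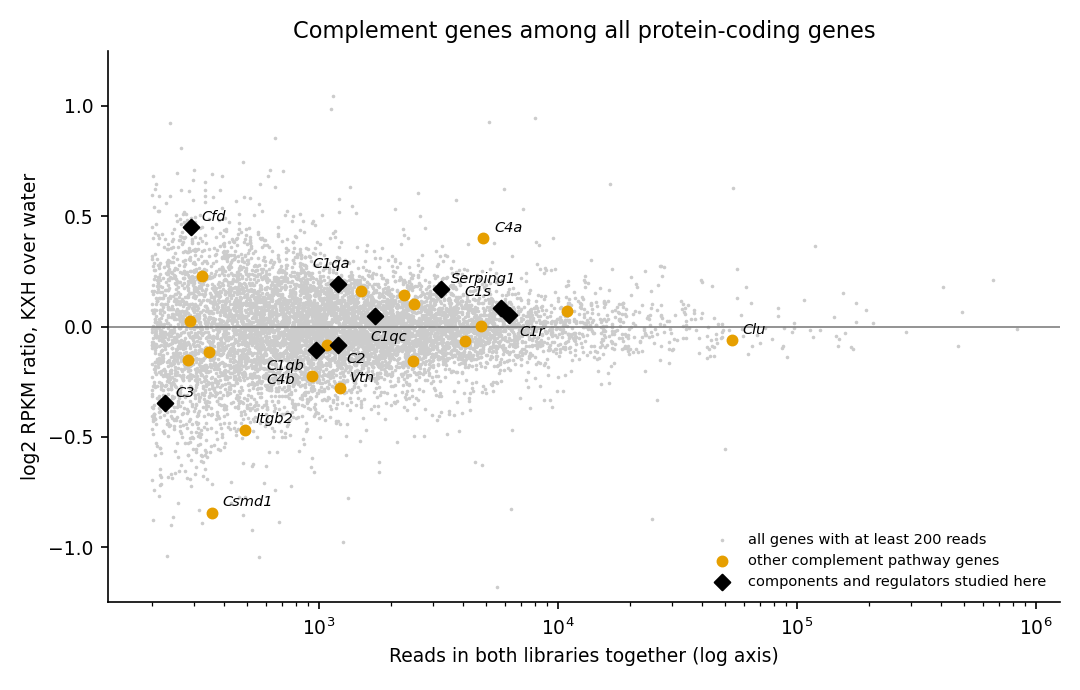
log2 RPKM ratio of KXH over water against the reads in both libraries together (log axis) for the 8761 genes with at least 200 reads (grey, 5 of them outside the axis range), the 9 complement genes (black diamonds) and the other 18 complement pathway genes (orange); each point is 1 gene. C4a stands at 0.40 with 4891 reads, while most black diamonds lie within the grey cloud near 0.

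Markers of cells that make complement were counted beside these values. In bulk tissue, fewer cells of a type and less RNA per cell cannot be told apart. Of 16 macrophage markers 14 were listed, and among the 11 with at least 200 reads 6 were higher and 5 lower. Their summed level was 259 RPKM with KXH and 276 RPKM with water, most of it from the lysozyme gene Lyz2 at 148 and 159 RPKM, and Ccr2 and Marco had no row. The macrophage receptor gene Csf1r was at 18.3 RPKM with KXH and 19.2 with water. The summed C1q chains over Csf1r were 7.23 with KXH and 6.60 with water, a quotient of 1.09 (interval 0.983 to 1.22). Of the 9 fibroblast markers, 8 had at least 200 reads and 7 of these were higher, and the sum was 1005 RPKM with KXH and 903 RPKM with water. Dcn, the decorin gene of fibroblasts, was at 482 RPKM with KXH and 422 with water (1.14, 1.11 to 1.17). C1r over Dcn was 0.167 with KXH and 0.184 with water, a quotient of 0.908 (0.858 to 0.961). Dcn is 1 of the 8 with at least 200 reads, whose ratios ran from 0.966 for Pdgfra to 1.46 for Pi16. The ratio of C1r, 1.04, lies inside that range, so the quotient depends on the marker chosen. The part of these markers in the C1r, C1s and Serping1 values was not tested.

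For Cfd, 4 of the 8 fat cell markers were listed with few reads. Plin1, Cidec and Ucp1 each had 1 read with KXH and 0 with water, and Lep had 5 reads with KXH and 2 with water. Adipoq and Retn had no row in either library. As the annotation was not given, a missing row cannot be told from a gene that was not annotated. The sum of the 8 fat cell markers, 438 RPKM with KXH and 406 with water, came nearly all from Fabp4 and Cidea, of which Fabp4 is also made by endothelium. Fabp4 was at 399 RPKM with KXH and 359 with water (1.11, 1.06 to 1.17). Cidea was lower, at 38.8 RPKM with KXH and 47.4 with water (0.818, 0.721 to 0.928). Of the 6 liver markers, Alb had 11 reads with KXH and 41 with water, the others except Ttr had at most 5 reads in either library, and the sum was 25.4 RPKM with KXH and 30.5 RPKM with water. The mesothelial sum over 3 listed of 5 markers was 20.2 RPKM with KXH and 17.2 RPKM with water, with no row for Upk3b and Lrrn4.

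The remaining cell lists and a list of interferon-induced genes were also counted. Endothelial markers summed to 366 RPKM with KXH and 414 RPKM with water, with 6 of 6 lower, and smooth muscle and pericyte markers to 259 and 303 RPKM, with 5 of 5 lower among those with at least 200 reads. Erythroid markers summed to 2261 RPKM with KXH and 3327 RPKM with water (3 of 3 lower). Neutrophil markers summed to 2.66 RPKM with KXH and 5.90 RPKM with water, but 0 of the 4 listed had 200 reads. S100a8 had 6 reads with KXH and 20 with water, and Csf3r had the most, 16 and 23. Lymphocyte markers summed to 23.7 RPKM with KXH and 24.8 with water, most of it Cd4, which rat macrophages also carry. Cardiac muscle markers summed to 32427 RPKM with KXH and 29543 RPKM with water, with 6 of 7 higher. Of 28 interferon-induced genes 21 had at least 200 reads, of which 3 were higher and 18 lower (3971 and 4790 of all genes), with a median log2 ratio of -0.37. Of the 21, 12 were at least 20% lower, against 5.31% of all genes, and 0 at least 25% higher, against 3.22%. The part of these lists in the values of the 9 complement genes was not tested.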

How the data were processed

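Myocardial total RNA of 2 libraries, 1 per group, was analysed from 4 deposited tables. The authors deposited a whole count of unique reads per gene, whose sum equals the total in the column heading. The deposited RPKM equals that count per kilobase of listed length per 1000000 reads of the table, checked to a relative difference of 1e-09. The deposited coverage is treated as a score, since it reaches 131.56 for some genes. The tools named, per the submitters' processing notes, are Bowtie 0.12.2 and the rn6 build, without their roles. Annotation, read counter, filters and strand setting were not given in the sources used here. If strand was not used, a gene and its antisense partner cannot be told apart. Genes absent from a table were taken as 0 reads.

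Ratios are RPKM of KXH over water with nothing added. For each, the reads from KXH as a share of the gene's reads gave an exact 95% Clopper-Pearson interval, rescaled by both totals. Levels carry exact Poisson intervals. Quotients of within-library ratios carry intervals on the log scale from the inverse read counts. PCR copies were not separated from molecules, so every interval covers counting error only. Counts use genes with at least 200 reads over both libraries that are at least 25% higher or 20% lower, or 1.5-fold as the stricter choice. edgeR and DESeq2 were not run, as 1 library per group gives no spread. The lncRNA tables gave only a total for scaling.

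The 9 genes and all lists were chosen with earlier results of these data known. The genes named are the 9, the pathway genes with at least 200 reads past those marks, up to 2 of the highest mean RPKM per class, and up to 3 per marker list. Cd59b was dropped from the list, since it is the current symbol of the gene listed as Cd59, and 1 gene of the pathway list is not reported here. The alternatives were 4 other scalings, removal of a length trend, pseudocounts of 1 and 0.1, other thresholds and other filters. Promoters are from RefSeq (GRCr8), in which 5 of the 9 genes have an entry. The steps were tested on simulated data. Software was Python 3.11.15 with matplotlib 3.10.9, scipy 1.17.1, pandas 2.3.3 and numpy 2.4.6.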

Additional observations from a re-analysis of the deposited data

How the results depend on the processing

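The ratios of the 9 genes, of the C1q sum and of the sum of all 9 were recomputed under 7 settings, and all 77 values lay inside the counting interval of the value reported. The 4 other scalings shifted log2 ratios by at most 0.02. Across genes, length and log2 ratio had a Spearman coefficient of -0.20. With the length trend removed the interval of C1qa held 1 and that of C1r lay above 1, so 4 intervals lay above 1 as before. With median-of-ratios and with trimmed-mean scaling C1r was added, for 5. The number of the 9 genes at least 20% lower, 1 (C3), became 0 with the length trend removed, on the log2(RPKM + 1) scale, at 1.5-fold and by the counting interval. The number at least 25% higher, 1 (Cfd), became 0 at 1.5-fold and 4 by the counting interval. For the other pathway genes, the 2 lower became 1 at 1.5-fold, 6 by the counting interval, 10 with no filter on reads and 1 where the mean had to reach 1 RPKM. The 1 higher became 0 at 1.5-fold, 4 by the counting interval, and 2 with no filter on reads or where the mean had to reach 1 RPKM. No paired analysis was possible because each group is 1 library, and for the same reason no library could be left out. Depth limits C3 most, at 96 reads with KXH and 131 with water.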

Other observations

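The ratio of 2 genes' levels within a library does not depend on how the libraries are scaled. C4a and C4b together were 2.68 times the level of C2 with KXH and 2.05 times with water, a quotient of 1.30 with a counting interval of 1.15 to 1.48. Cfb was 15.9 times the level of C3 with KXH and 11.2 times with water, a quotient of 1.42 (1.07 to 1.89). These pairs were chosen after the values were seen, and with 1 library per group none has a replicate check.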
